A study of Homo sapiens with 9 samples.

Results

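The AP-1 and immediate early factors described here are 10 genes: the Fos family members FOS, FOSB, FOSL1 and FOSL2, the Jun family members JUN, JUNB and JUND, their partner ATF3, the zinc finger factor EGR1 and the survival gene IER3. The members were all array probes that carry a RefSeq transcript of 1 of these genes. This rule gave 14 of 50599 probes, 1 for each gene except ATF3, which had 4, and IER3, which had 2, and 10 of the 21743 gene names on the array. These genes answer to stress and to detachment of cells, and the transduced cell groups of this study were separated by detachment.

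The cells were A549, an established line from a human adenocarcinoma of the lung, in 3 groups with 3 Agilent arrays of 1 colour each. The parental A549 cells carried no transduced factor, while both other groups had received OCT3/4, SOX2 and KLF4 (OSK) by retrovirus and were at a later passage. The OSK-A549-Colony group (colony cells below) holds cells of the colonies that formed after transduction. The OSK-A549-SN group (SN cells below) holds the spindle-shaped cells found around passaged colonies. A short treatment with trypsin released the SN cells into the supernatant, while the colonies stayed on the dish and were then washed, picked and pipetted. These steps are described for passaging and collecting the transduced cells. How the cells of any of the 3 groups were harvested for RNA is not given in the sources used here. Transduction, passage and harvest therefore cannot be told apart against parental A549, and cell type and harvest cannot be told apart between the transduced groups. Several colonies were passaged together in a dish, and the RNA came from 3 independent transductions. No array of EGFP-transduced cells was analysed here, so the effect of the virus alone cannot be told apart either.

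AP-1 is a dimer of a Fos and a Jun protein, or of 2 Jun proteins, held together by a leucine zipper. It binds short palindromic DNA sites. Several of its genes, but not all, are switched on within minutes of a growth factor, a stress kinase signal, injury or loss of adhesion, without new protein synthesis. FOS, FOSB, JUNB, EGR1 and ATF3 are the fast and short-lived part of this response, while FOSL1, FOSL2 and JUND last longer. In dissociated tissues, FOS, JUN, EGR1, ATF3 and heat shock genes are the usual signature of the dissociation itself.

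The start of several of these genes carries sites through which AP-1 and its upstream factors act on the family itself, so the stretches that hold such letters are shown for the genes below whose values stood highest or lowest in the transduced cells. RefSeq promoter windows of GRCh38.p14 were given for 8 of the 10 members, with 2 windows for ATF3, and FOSL1 and IER3 had none. Each window was searched on both strands for an AP-1 site (TGANTCA), a cAMP response element-like site bound by Jun and ATF dimers (TGANNTCA), an EGR site (GCGNGGGCG) and the CArG box bound by serum response factor. The sequences are the 250 bases before the transcript start, with the matches in capitals.
JUN, chr1:58784048-58784297, minus strand: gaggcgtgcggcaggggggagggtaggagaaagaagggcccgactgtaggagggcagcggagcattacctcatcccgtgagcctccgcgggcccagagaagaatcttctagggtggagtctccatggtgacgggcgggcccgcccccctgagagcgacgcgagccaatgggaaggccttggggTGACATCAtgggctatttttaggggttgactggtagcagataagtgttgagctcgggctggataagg
JUND, chr19:18281623-18281872, minus strand: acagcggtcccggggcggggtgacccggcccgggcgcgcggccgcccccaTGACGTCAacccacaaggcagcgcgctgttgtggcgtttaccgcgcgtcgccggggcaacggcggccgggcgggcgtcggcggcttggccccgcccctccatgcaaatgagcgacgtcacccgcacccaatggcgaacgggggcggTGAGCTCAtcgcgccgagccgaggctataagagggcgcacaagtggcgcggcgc
ATF3, chr1:212565157-212565406, plus strand: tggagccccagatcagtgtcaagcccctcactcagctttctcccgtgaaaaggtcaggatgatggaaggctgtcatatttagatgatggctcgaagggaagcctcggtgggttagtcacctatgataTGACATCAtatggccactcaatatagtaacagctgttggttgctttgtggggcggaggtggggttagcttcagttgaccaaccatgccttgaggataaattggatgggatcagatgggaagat
EGR1, chr5:138465229-138465478, plus strand: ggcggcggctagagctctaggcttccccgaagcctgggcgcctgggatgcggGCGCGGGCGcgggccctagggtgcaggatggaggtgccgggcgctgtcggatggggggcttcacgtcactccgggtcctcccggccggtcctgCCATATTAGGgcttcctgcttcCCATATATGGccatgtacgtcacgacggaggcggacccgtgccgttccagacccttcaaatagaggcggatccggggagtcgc
JUN held 1 cAMP response element-like match, from 67 to 60 bases before the start. JUND held 2 such matches, at 200 to 193 and at 54 to 47 bases before the start. The first ATF3 window held 1, at 123 to 116 bases. EGR1 held an EGR match at 198 to 190 bases and 2 CArG boxes, at 105 to 96 and at 83 to 74 bases. Of the 35116 human promoter windows of 300 bases, 11.51% held the cAMP response element-like letters, 9.43% the EGR letters and 1.29% a CArG box. The AP-1 letters, in 7.71% of all windows, were found among the members only in FOSL2, and there after the start. No promoter was assayed in this study, so these matches are a description of the sequence.

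All 14 probes were well above background on at least 1 array, and 13 of them on all 9, which leaves FOSB as the only member near background. Values below are log2 intensities relative to the 75th percentile of each array, so that 0 is the brightness of a probe at that percentile. These levels can be compared between arrays for 1 probe, not between probes. The arrays themselves were alike in depth, with 25808 to 29315 probes well above background and no saturated spot, and their number limits the precision. Replicates correlated at 0.983 to 0.997 over the 23758 probes detected on all arrays, and the median SD of a probe was 0.21 in parental A549, 0.16 in OSK-A549-SN and 0.09 in OSK-A549-Colony. Array 3 of OSK-A549-SN lay alone on the second slide.

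**Figure D1:**
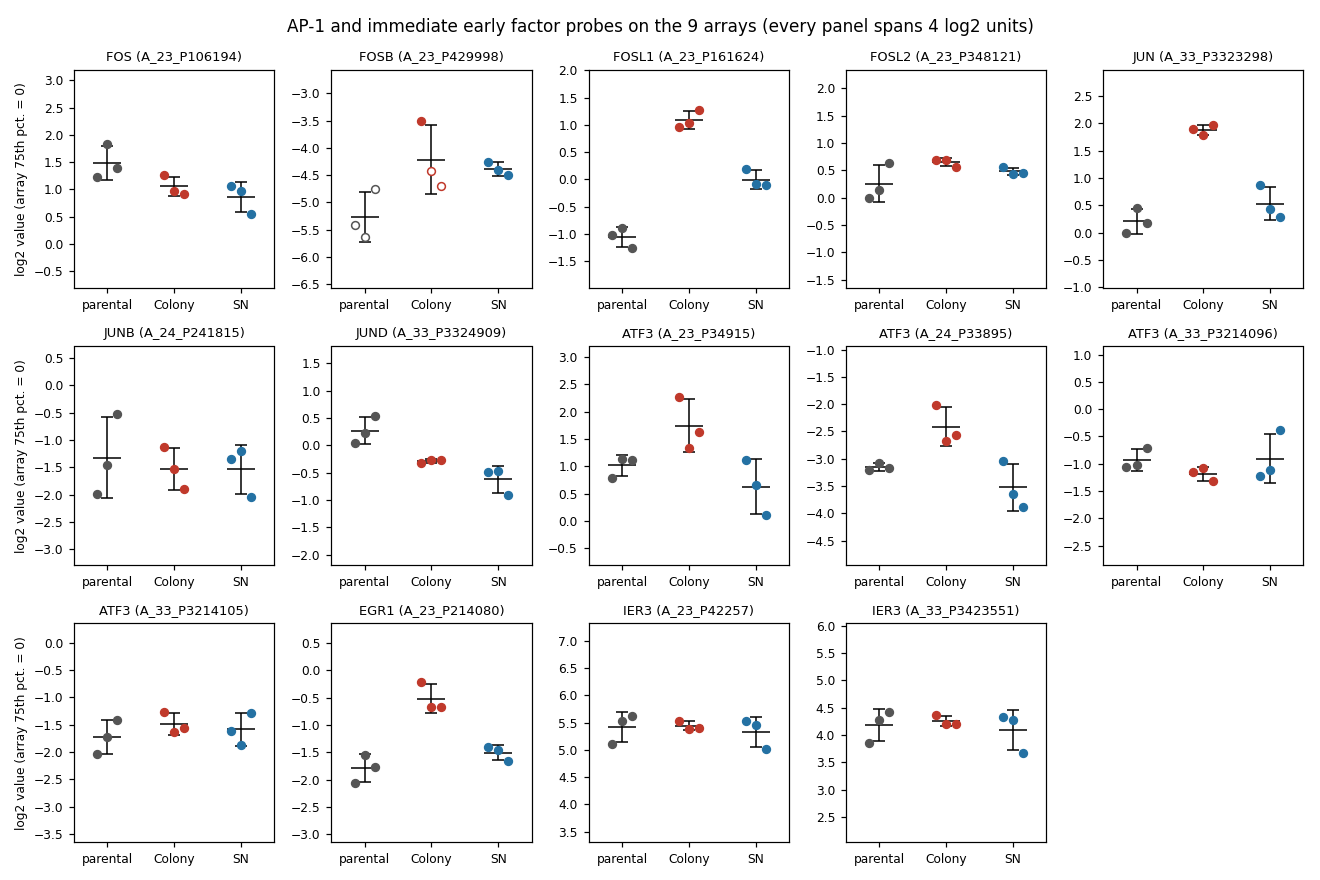
Log2 value (vertical axis, the array's 75th percentile is 0) of each of the 14 probes on the arrays of the 3 cell groups. Each dot is 1 array, filled where the probe was well above background, and the bars are the mean and SD of 3 arrays. FOSL1, JUN, EGR1 and 2 of the ATF3 probes stand highest on the 3 OSK-A549-Colony arrays, while the IER3 groups overlap.

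In OSK-A549-Colony against parental A549, 3 members rose: FOSL1 by 4.41-fold, JUN by 3.20-fold and EGR1 by 2.42-fold. FOS, the founding member of the family, did not rise with them, and its value was 1.35-fold lower without passing the test. A probe was called at an adjusted p under 0.05 over all tested probes and a fold change over 2 (limma). Of the 14 member probes, 3 were called, or 10 higher and 4 lower by sign alone, while 3.70% of all 30864 tested probes were called. The groups did not overlap on 8 member probes, 6 with higher and 2 with lower colony arrays, beside 41.6% of all tested probes. The median log2 fold change was 0.32 over the member probes and -0.03 over all tested probes. These counts include FOSB, whose parental values were not above background and give no measured direction. Over the other 13 probes, 9 were higher and 4 lower, 7 did not overlap (5 higher, 2 lower), and the median was 0.24.

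In OSK-A549-SN against parental A549, only FOSL1 was called among the members, at 2.07-fold higher. JUN and EGR1, which rose in the colony cells, were at 1.25-fold and 1.22-fold and did not pass the test. Of the 14 member probes 1 was called, beside 1.55% of all 32218 tested probes. By sign alone, 7 were higher and 7 lower, with a median log2 fold change of -0.03 against 0.08 over all tested probes. The groups did not overlap on 4 member probes, beside 32.1% of all tested probes. Of these, FOSL1 was higher, FOS and JUND were lower, and FOSB has no measured direction. Without FOSB, 6 probes were higher and 7 lower, with a median of -0.09. The call of FOSL1 was lost when any 1 of the 6 arrays was left out. Those fits called 0 to 190 probes in all, beside 498 with all 6 arrays.

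In the comparison of colony cells with SN cells, no probe of the array was called, and so no member was (0.00% of 31746 tested probes, limma, smallest adjusted p 0.0930). At an unadjusted p under 0.05 there were 6181 probes, 5 of them members: JUN, FOSL1, EGR1 and 2 ATF3 probes, all higher in OSK-A549-Colony. JUN was 2.56-fold higher in the colony cells, ATF3 2.17-fold and 2.16-fold on 2 probes, FOSL1 2.13-fold and EGR1 1.98-fold. The groups did not overlap on 7 member probes, all higher in OSK-A549-Colony, beside 30.8% of all tested probes. With the stricter detection filter, which tests fewer probes, JUN and FOSL1 were called at an adjusted p of 0.0367 each, among 139 probes.

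The 3 comparisons share their arrays, so a probe high on the OSK-A549-Colony arrays counts in both comparisons of those cells. Seen over all arrays, 5 member probes of 4 genes (FOSL1, JUN, EGR1 and 2 of the 4 ATF3 probes) had all 3 OSK-A549-Colony arrays above all 6 other arrays. This was so for 6.69% of the 33075 probes that were detected on at least 1 array. No member probe had all 3 OSK-A549-Colony arrays below the other 6.

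**Figure D2:**
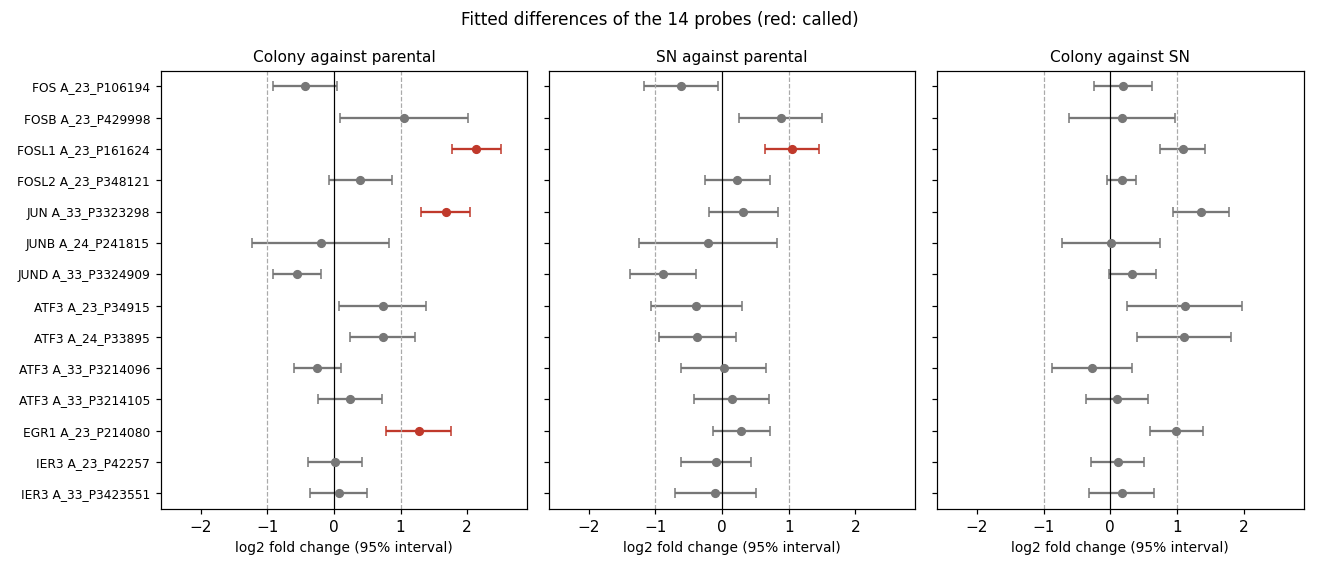
Fitted log2 fold change (horizontal axis) of each member probe in the 3 comparisons, with its 95% interval from limma. Red marks a called probe and dashed lines mark a fold change of 2. FOSL1, JUN and EGR1 were called against parental A549 in the colony cells and FOSL1 in the OSK-A549-SN cells, and no member was called between the transduced groups.

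FOSL1 (FRA-1) encodes a Fos protein without the activation domain of FOS. Its log2 values were -1.02, -0.88 and -1.25 on the parental A549 arrays. They were 0.19, -0.09 and -0.11 on the OSK-A549-SN arrays and 0.96, 1.03 and 1.27 on the OSK-A549-Colony arrays. The 3 groups formed separate steps with no overlap, parental lowest and colony highest, and within each group the arrays spanned less than the step to the next. In background-corrected intensity, the parental arrays read 91.5 to 137 units, the SN arrays 204 to 264 and the colony arrays 479 to 583. Against parental A549 the log2 fold change was 2.14 ± 0.15 (SE, n = 3 per group) in OSK-A549-Colony, with a limma adjusted p of 0.0141. In OSK-A549-SN it was 1.05 ± 0.16 (SE), with a limma adjusted p of 0.0462. The step between the transduced groups was 1.09 ± 0.14 (SE), with a 95% interval of 0.75 to 1.43 and a limma adjusted p of 0.102. FOSL1 was the only member that was called in more than 1 comparison.

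FOS, the classic immediate early partner of JUN, was brightest in parental A549, with log2 values of 1.23, 1.83 and 1.39. OSK-A549-Colony had 1.26, 0.98 and 0.92, and OSK-A549-SN had 1.06, 0.98 and 0.55. The OSK-A549-SN arrays all lay below the parental ones, while 1 OSK-A549-Colony array lay just above the lowest parental array. The log2 fold change was -0.43 (95% interval -0.91 to 0.05) in the colony cells and -0.62 (-1.17 to -0.07) in the SN cells, with limma adjusted p of 0.203 and 0.194. FOS was not called in either comparison.

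FOSL2 (FRA-2), the other Fos protein without that domain, had log2 values of -0.01, 0.14 and 0.64 in parental A549. They were 0.70, 0.69 and 0.57 in the colony cells and 0.56, 0.43 and 0.46 in the SN cells. The third parental array reached into the range of the colony arrays, so the groups overlapped. The log2 fold change against parental A549 was 0.39 (95% interval -0.08 to 0.86) in the colony cells and 0.23 (-0.26 to 0.71) in the SN cells. Neither was called, at limma adjusted p of 0.227 and 0.538.

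FOSB, the fourth Fos protein, was the one member close to the background of the arrays. It was well above background on 0 of 3 parental A549 arrays, 1 of 3 OSK-A549-Colony arrays and 3 of 3 OSK-A549-SN arrays. The measured values were -5.42, -5.63 and -4.75 in parental A549, -3.51, -4.43 and -4.71 in OSK-A549-Colony, and -4.25, -4.41 and -4.51 in OSK-A549-SN. The parental values give only a bound, and the OSK-A549-SN mean lay below the mean of the dimmest measurable signals of the parental arrays, so no fold is given. FOSB was not called in any comparison.

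JUN, the partner through which Fos proteins bind DNA, separated the colony cells from both other groups. Its log2 values were -0.01, 0.45 and 0.17 in parental A549 and 0.86, 0.44 and 0.28 in OSK-A549-SN, and these overlapped. On the OSK-A549-Colony arrays they were 1.90, 1.79 and 1.97, and the lowest of these lay well above the highest OSK-A549-SN array. The intensity was 245 to 346 units in parental A549, 295 to 421 in SN cells and 809 to 948 in colony cells. The log2 fold change in OSK-A549-Colony against parental A549 was 1.68 ± 0.15 (SE, n = 3 per group), with a limma adjusted p of 0.0153. In OSK-A549-SN it was 0.32 (95% interval -0.20 to 0.84), with a limma adjusted p of 0.425. From SN cells to colony cells it was 1.36 ± 0.17 (SE; 95% interval 0.94 to 1.78), with a limma adjusted p of 0.102. Thus JUN differed from FOSL1 in its order of groups: the OSK-A549-SN arrays lay between the others for FOSL1 and with parental A549 for JUN, a contrast between probes that was not tested.

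JUND, the steady Jun protein that resting cells carry, stood highest in parental A549. Its log2 values were 0.05, 0.23 and 0.53 in parental A549, -0.33, -0.27 and -0.27 in OSK-A549-Colony, and -0.49, -0.46 and -0.91 in OSK-A549-SN. The 3 groups did not overlap, in the order parental A549, OSK-A549-Colony, OSK-A549-SN. The log2 fold change was -0.56 (95% interval -0.92 to -0.19) in the colony cells and -0.89 (-1.38 to -0.40) in the SN cells. These values missed the threshold, with limma adjusted p of 0.0710 and 0.0871, and the fold was under 2 in both. JUN and JUND, whose promoter windows both hold the cAMP response element-like letters printed above, lay on opposite sides of parental A549 in the colony cells.

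JUNB, an early Jun protein and a weaker activator than JUN, gave no separation. Its log2 values ran from -1.99 to -0.53 in parental A549, from -1.90 to -1.14 in the colony cells and from -2.05 to -1.21 in the SN cells. The parental SD of 0.74 was the largest of any member in that group. The log2 fold changes were -0.20 (95% interval -1.22 to 0.83) and -0.21 (-1.25 to 0.83) against parental A549, so a 2-fold lower level lay within both intervals and a 2-fold higher level just outside them.

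ATF3, a stress-induced partner of the Jun proteins, was measured by 4 probes that disagreed. Probe A_23_P34915 read 0.79, 1.14 and 1.11 in parental A549, 2.27, 1.34 and 1.63 in OSK-A549-Colony, and 1.12, 0.65 and 0.11 in OSK-A549-SN. Probe A_24_P33895 read -3.21, -3.07 and -3.16, then -2.01, -2.67 and -2.56, and then -3.04, -3.65 and -3.88 in the same order. Both probes put the first OSK-A549-Colony array highest and all colony arrays above all others. Against parental A549 both gave 0.73 on the log2 scale for the colony cells, with SE of 0.27 and 0.20 and limma adjusted p of 0.137 and 0.0728. Against OSK-A549-SN they gave 1.12 ± 0.35 (SE) and 1.11 ± 0.28 (SE), with limma adjusted p of 0.192 and 0.152.

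The other ATF3 probes did not show this pattern. Probe A_33_P3214096 lay between -1.06 and -0.70 in parental A549, between -1.32 and -1.07 in the colony cells and between -1.22 and -0.38 in the SN cells. Probe A_33_P3214105 lay between -2.03 and -1.42, between -1.64 and -1.26, and between -1.87 and -1.28. Their log2 fold changes in OSK-A549-Colony were -0.25 (95% interval -0.61 to 0.10) and 0.24 (-0.25 to 0.73). The first of these probes carries the same RefSeq transcript as the pair that stood high, so the transcript name does not sort the probes, and A_33_P3214105 carries another. Where in the transcripts the probes lie was not examined here, and whether ATF3 RNA differed between groups is uncertain from this array.

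EGR1, an early growth response factor that shares the serum response of FOS, was called in the colony cells. Its log2 values were -2.06, -1.56 and -1.77 in parental A549 and -1.40, -1.46 and -1.65 in OSK-A549-SN. On the OSK-A549-Colony arrays they were -0.21, -0.67 and -0.67, above all 6 other arrays. The OSK-A549-SN arrays overlapped the parental ones. In intensity the gene read 61.0 to 85.9 units in parental A549, 79.1 to 87.5 in SN cells and 147 to 216 in colony cells. The log2 fold change was 1.28 ± 0.20 (SE, n = 3 per group) in OSK-A549-Colony, with a limma adjusted p of 0.0284. In OSK-A549-SN it was 0.29 (95% interval -0.14 to 0.72), with a limma adjusted p of 0.392. From SN cells to colony cells it was 0.99 ± 0.16 (SE), with a limma adjusted p of 0.106. Against parental A549, EGR1 and FOS, which share serum response factor as a regulator, had fold changes of opposite sign in both transduced groups, and of these only EGR1 in the colony cells was called.

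IER3 (IEX-1), an early response gene that protects cells from death, showed no separation on either probe. On probe A_23_P42257 the log2 values ran from 5.10 to 5.62 in parental A549, from 5.38 to 5.53 in the colony cells and from 5.01 to 5.53 in the SN cells. On probe A_33_P3423551 they ran from 3.86 to 4.42, from 4.20 to 4.37 and from 3.67 to 4.33. The log2 fold changes of both probes in all comparisons lay between -0.10 and 0.17, and every 95% interval lay within -0.71 and 0.66, so a change of 2-fold lay outside all of them.

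How firmly the calls stood depended on single arrays. In an exact permutation test of 1 probe with 3 arrays against 3, p cannot go below 0.1, and this value was reached by every member without overlap. Leaving out each of the 6 arrays in turn, FOSL1 kept its call in OSK-A549-Colony in 4 of 6 fits, and JUN and EGR1 in 2 of 6 each. None of the 3 was called without parental A549 replicate 2 or without OSK-A549-Colony replicate 2, and without OSK-A549-Colony replicate 1 or 3 only FOSL1 was. The size of the difference hardly moved: FOSL1 gave 2.04 to 2.22, JUN 1.57 to 1.80 and EGR1 1.13 to 1.40 on the log2 scale. FOSL1 in OSK-A549-SN gave 0.95 to 1.13, with adjusted p between 0.0705 and 0.175 (limma).

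**Figure D3:**
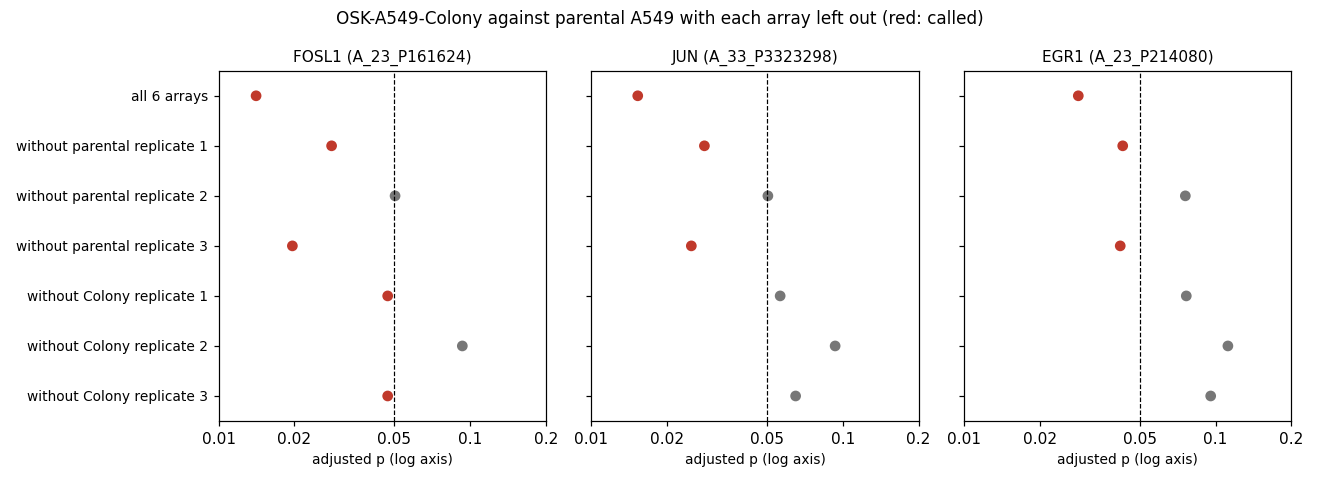
Adjusted p (horizontal axis, log scale) of FOSL1, JUN and EGR1 in OSK-A549-Colony against parental A549, with all 6 arrays and with each array left out. Red marks a call and the dashed line the threshold. Each gene lost its call without parental replicate 2 and without colony replicate 2, with adjusted p of 0.0503 to 0.112. Over all probes of the array, those fits called 1 and 0.

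The genes around these factors were described from fixed lists, with 1 probe for each gene. Among all genes tested, 2.08% were called higher and 1.81% lower in OSK-A549-Colony against parental A549, and 0.757% and 0.876% in OSK-A549-SN against parental A549. The median log2 fold change over all genes was 0.03 and 0.09 for colony and SN cells against parental A549, and -0.03 for colony against SN cells. No gene of any list was called between the transduced groups. Over the 10 members, by the brightest probe of each, the medians were 0.56, 0.07 and 0.26, or 0.39, -0.09 and 0.33 over the 9 genes without FOSB. For ATF3 the brightest probe was A_23_P34915, at 0.73 in OSK-A549-Colony against parental A549. There A_24_P33895 gave 0.73, A_33_P3214096 -0.25 and A_33_P3214105 0.24, so the member medians depend on the probe chosen for ATF3.

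The other leucine zipper factors, which pair with or compete with Fos and Jun, were measured for 25 genes. In OSK-A549-Colony against parental A549, 23 were tested, 1 was called higher and none lower, with a median of 0.23. The called gene was CREB5, a factor that dimerises with JUN, at a log2 fold change of 1.34 ± 0.24 (SE), with a limma adjusted p of 0.0342. Its log2 values were -2.74, -2.18 and -2.88 in parental A549, -1.51, -1.28 and -0.98 in OSK-A549-Colony, and -2.33, -2.42 and -2.15 in OSK-A549-SN. The colony arrays of CREB5 lay above all 6 others, as for JUN and EGR1, and its call held in 1 of 6 fits with an array left out. ATF5 followed at 0.89, not called. The lowest were MAFK and ATF7, at -0.42 and -0.34, not called. In OSK-A549-SN, 24 were tested and none was called, with a median of 0.06. The extremes there were ATF5 and MAF at 0.58 and 0.45, and ATF7 and JDP2, a repressor of AP-1, at -0.44 and -0.36. For colony against SN cells the median was 0.13, with CREB5 at 1.04 and CEBPG at 0.60 at the top, and MAFA at -0.39 and CEBPD at -0.36 at the bottom. BATF was above background on 1 OSK-A549-SN array only, so no difference is given.

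Other immediate early genes went in both directions. Of 38 tested in OSK-A549-Colony against parental A549, 2 were called higher and 2 lower, and the median was 0.11. TNFAIP3, a brake on NF-kB signalling, rose by 1.17 ± 0.17 (SE, log2; limma adjusted p 0.0271), from -3.0, -2.63 and -2.88 in parental A549 to -1.37, -1.82 and -1.79 in OSK-A549-Colony. ARC, an activity-dependent early gene of neurons, was called too, but it was above background on 0 parental, 1 colony and 3 OSK-A549-SN arrays. On the SN arrays, where it was the only gene of the list called (limma adjusted p 0.0307), it was at least 1.21-fold above parental A549. For the colony cells, no fold is given. GADD45B, a stress sensor, fell by 1.21 and SIK1, a salt-inducible kinase, by 1.02 on the log2 scale in OSK-A549-Colony, with limma adjusted p of 0.0221 and 0.0379.

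The nuclear receptors NR4A1 and NR4A2 are early genes that respond with FOS and EGR1 in many cells. NR4A2 was at -1.72 in OSK-A549-Colony and was not called, at a limma adjusted p of 0.0573. NR4A1 was above background on 2 parental, 1 colony and 1 SN array only, so no difference is given. In OSK-A549-SN, NR4A2 and CCN2, a matrix protein gene, were lowest at -0.96 and -0.87, and ARC and KLF10 highest, KLF10 at 0.54. The median was -0.08 in this comparison. Between the transduced groups it was 0.14, with the matrix genes CCN2 at 1.14 and CCN1 at 0.99 highest, and of the genes measured on all arrays NR4A2 at -0.76 and NR4A3 at -0.68 lowest.

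The signalling genes upstream of AP-1, are mostly MAP kinases and their substrates. None of 28 tested genes passed the fold threshold in any comparison, and the medians were 0.11, 0.14 and -0.04. In OSK-A549-Colony the highest were MAP2K3, a kinase of the p38 branch, at 0.79, and RPS6KA4, a p38 and ERK target, at 0.70. Both had adjusted p under the threshold (0.0219 and 0.0334, limma) and a fold under 2. The lowest were MAPK3 (ERK1) at -0.69 and RPS6KA5 at -0.55. In OSK-A549-SN the highest were RPS6KA4 at 0.86 and MAP2K3 at 0.56, and the lowest MAP3K1 at -0.58 and MAPK3 at -0.35. For colony against SN cells MAP2K6 and MAPK8 (JNK1), whose protein product phosphorylates JUN, were lowest at -0.68 and -0.45, and RPS6KA3 and ELK4 highest at 0.31 and 0.23. Kinase activity was not measured by these arrays.

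Genes known as targets of AP-1 held the largest values of all lists. Of 25 tested in OSK-A549-Colony against parental A549, 4 were called higher and none lower, and the median was 0.38. The values of 3 of the called genes follow. CXCL8, a neutrophil chemokine, rose by 2.25 ± 0.36 (SE; limma adjusted p 0.0308), from -3.52, -2.23 and -3.13 to -0.36, -0.89 and -0.90. PLAU, the urokinase gene, rose by 1.82 ± 0.30 (SE; limma adjusted p 0.0308). MMP1, the interstitial collagenase whose promoter defined the AP-1 site, was well above background on 0 parental arrays and on all others. It was at least 2.45-fold higher in OSK-A549-Colony (limma adjusted p 0.0462), and its 3 colony arrays were spread widely at -1.61, -3.08 and -4.03. Without OSK-A549-Colony replicate 1 the bound was 1.57-fold.

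In OSK-A549-SN none of the 26 tested target genes was called, with a median of 0.26. MMP1 was at least 1.91-fold higher there, with a bound of 1.36-fold without OSK-A549-SN replicate 1 and 2.91-fold without replicate 3. IL11 stood at 1.95. The lowest were DUSP6 at -0.41 and TGFB1 at -0.18, and in OSK-A549-Colony TGFB1 at -0.44 and, of the genes measured on all arrays, DUSP6 at -0.24. For colony against SN cells the median was 0.02, with CXCL8 at 1.48 highest. MMP13 and MMP10 were above background on at most 1 array of each group, and of the genes measured on all arrays PHLDA1 was lowest at -0.40. CXCL8 had its 3 OSK-A549-SN arrays below the colony arrays. Of the 26 target genes tested there, 4 did not overlap with higher and 1 with lower colony arrays, beside 33% of all genes in either direction. By sign alone, 13 were higher and 13 lower.

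**Figure D4:**
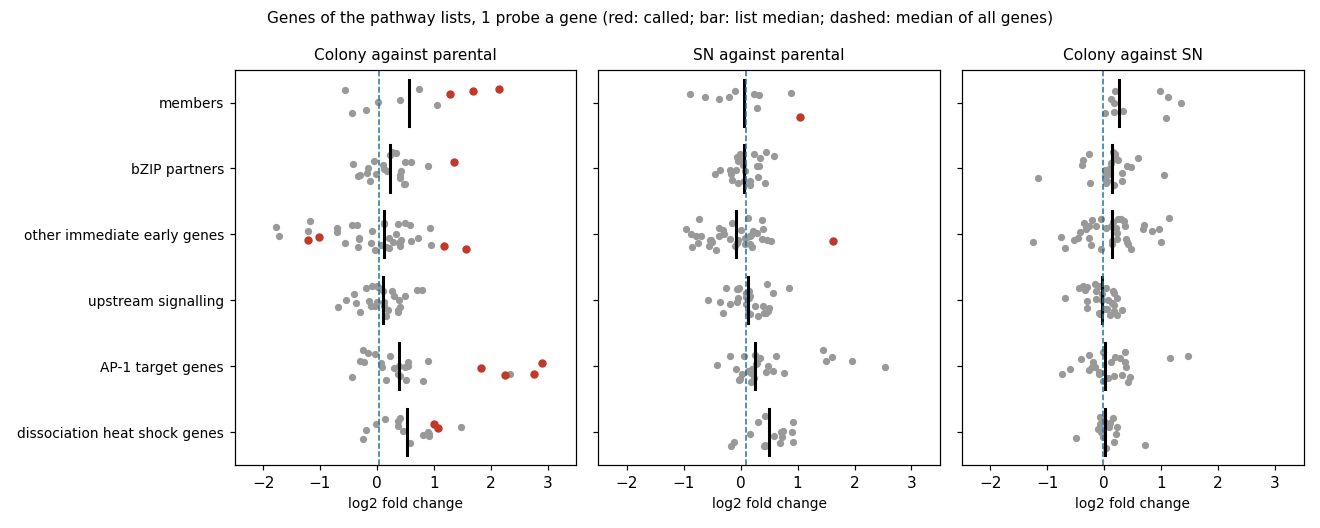
Log2 fold change (horizontal axis) of each tested gene of the members and of 5 lists in the 3 comparisons, 1 dot a gene. Red dots were called, black bars are list medians and the dashed line is the median of all genes. Called AP-1 target genes all lie to the right in OSK-A549-Colony against parental A549, called early genes lie on both sides, and no gene was called between the transduced groups.

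Heat shock genes, which rise with FOS and JUN when tissue is dissociated, had medians above that of all genes in both transduced groups. All 16 were tested, and with parental A549 as the reference the median was 0.52 on the log2 scale in the colony cells and 0.51 in the SN cells, with 13 and 14 genes above 0. Of these, HSPA8, the constitutive HSP70, and DNAJA1, its partner, were called in OSK-A549-Colony, at 1.08 ± 0.11 (SE) and 1.00 ± 0.14 (SE), with limma adjusted p of 0.0181 and 0.0240. None was called in OSK-A549-SN, where HSPA8 missed the fold threshold at 0.90 (limma adjusted p 0.0445), and DNAJA1 and HSP90AA1 stood at 0.91. The largest value in OSK-A549-Colony was 1.47 for DNAJB4, not called. The lowest were HSPB1 at -0.24 and HSPA6, a strictly stress-inducible gene, at -0.20 in OSK-A549-Colony, and HSPB1 at -0.17 and HSF1 at -0.12 in OSK-A549-SN. Between the transduced groups the median was 0.02, with DNAJB4 at 0.72 and HSPA1B at 0.22 highest and HSPA6 at -0.50 and BAG3 at -0.11 lowest. The part of harvest in the AP-1 values was not tested.

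The labelled cell type was checked against markers. Of 10 epithelial markers, 9 to 10 were above background on every array, and their summed level was 1592 to 1793 in parental A549, 1489 to 1584 in the colony cells and 1509 to 1850 in the SN cells. CDH1 (E-cadherin) differed from parental A549 by -0.996 on the log2 scale in colony cells and by -0.83 in SN cells, neither called. Of the 10 epithelial markers, 4 were higher and 6 lower in colony cells, with a median of -0.30. In SN cells 3 were higher and 7 lower, with a median of -0.06. Of 8 fibroblast or mesenchymal markers, 1 to 2 were above background on every array. ACTA2 was so on all 9 arrays and COL1A1 on 3, while the collagen genes COL1A2 and COL3A1, DCN, LUM, PDGFRB and THY1 were on none. Of the 2 markers tested, 1 was higher and 1 lower against parental A549 in both transduced groups. The summed level of the 8 markers was 1.31 to 4.22 in parental A549, 0.94 to 1.28 in the colony cells and 1.57 to 1.84 in the SN cells. Of 6 endothelial markers, 2 to 3 were above background, with PECAM1, CLDN5 and TEK on no array. Their summed level was 0.21 to 0.28 in parental A549, 0.23 to 0.26 in the colony cells and 0.27 to 0.46 in the SN cells. The endothelial genes measured on all arrays were CDH5, at 0.33 in the colony cells and 0.57 in the SN cells against parental A549, and VWF, at -0.47 and 0.24, none called. Of 5 leukocyte markers, 3 to 4 were above background, with a summed level of 3.56 to 9.01, 4.26 to 4.89 and 5.36 to 6.47. CD68, which many cell types carry in lysosomes, was the only marker called, at 1.04 in the colony cells (limma adjusted p 0.0272), beside 1.03 in the SN cells, not called. The other leukocyte markers did not follow it. PTPRC and CD14, both above background on all 9 arrays, were at -0.57 and -0.74 in the colony cells and at -0.01 and -0.17 in the SN cells, none called. CD3E was above background on 2 arrays, and the median of the 4 tested markers was -0.66 in the colony cells and -0.09 in the SN cells. Summed levels add values relative to the 75th percentile on a linear scale. The brightest probes of a list weigh most in them, so they do not show whether a dim marker was kept. As these are bulk samples, a larger share of cells with a gene and more RNA for each cell cannot be told apart for any value above.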

How the data were processed

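The authors hybridised RNA from 9 samples to Agilent single-colour arrays. Per the file headers, the deposited intensity of each spot was written by Feature Extraction 11.5.1.1 after background subtraction, not scaled across arrays. A second deposited file of log2 values differed from the log2 values here by 1 constant per array. The study used GeneSpring, whose settings beyond the filter and thresholds are not given in the sources used here.

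Outlier-flagged spots (357 to 484 of 62976 per array) and 4259 control spots were dropped. The logged intensities were averaged over the spots of each probe and set relative to the array's 75th percentile. A probe was detected where at least 0.5 of its spots were positive, significant and well above background. RefSeq accessions named 30275 of 50599 probes. Each comparison was fitted on its own 6 arrays with limma 3.58.1 in R 4.3.3 (lmFit, eBayes), over probes detected on at least 1 of them, with Benjamini-Hochberg adjustment over all tested probes. A call needed an adjusted p under 0.05 and a fold over 2. Where a probe was above background on no array of a group, the bound uses, on each of those arrays, the higher of its own value and the lowest value above background. Code was tested on simulated data.

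The probe rule uses no measured value, but members and gene lists were chosen with earlier results of these data known. All member probes are named, and of each list the 2 largest increases and decreases in each comparison and the called genes. Some genes of the lists are not reported here by name, and stay in the counts, medians and plots. Alternatives were normexp on median spot brightness (offset 50), quantile normalization, median centring, other detection filters, a block for slide or for replicate number, 1 fit of all 9 arrays, unmoderated variances, the deposited table, and leaving out each array. Slide as a block changes nothing for OSK-A549-Colony against parental A549, whose arrays lay on 1 slide.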

Additional observations from a re-analysis of the deposited data

How the results depend on the processing

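The 42 log2 fold changes of the member probes were recomputed under 15 or 16 alternatives, fewer where a probe was no longer tested, which gave 656 values. Of these, 594 kept their direction and their side of the threshold, 27 lost a call, 3 gained one and 32 turned sign. All values that turned sign belonged to JUNB, IER3, FOSB and the ATF3 probes A_33_P3214096 and A_33_P3214105, and none was called. Values of FOS, FOSL1, FOSL2, JUN, JUND, EGR1 and the other ATF3 probes kept their sign under every alternative.

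In OSK-A549-Colony against parental A549, 3 member probes and 1143 probes in all were called. The counts in all were 333 with normexp, 583 without the detection filter and 336 without moderation, and each of these left 2 member probes called, FOSL1 and JUN. EGR1 was at 0.72 on the log2 scale with normexp, whose offset shrinks the fold of dim probes. Leaving out an array gave 0 to 1362 probes and 0 to 3 member probes. In OSK-A549-SN against parental A549, 1 member probe and 498 probes were called. The counts were 232 with normexp, 215 without the filter, 187 with slide as a block and 5 without moderation, each with 0 member probes, and 980 with the stricter filter and 1085 with all 9 arrays in 1 fit. Leaving out an array gave 0 to 190 probes and 0 member probes. Between the transduced groups, 0 probes were called, beside 32 with normexp (1 member probe, JUN), 139 with the stricter filter (2 member probes) and 9 with all 9 arrays. Leaving out an array left 0. Causes were not tested, except that the filters change how many probes are adjusted together.

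The replicate numbers of the labels did not pair the arrays by their deviations from the group means: same-numbered arrays correlated at -0.05 to -0.01, -0.20 to 0.15 and 0.07 to 0.24 in the 3 comparisons. With replicate number as a replicate block, 0 probes and 0 member probes were called in all 3 comparisons. Between the transduced groups all 3 numbers correlated best with their own number, and same-numbered arrays share their passage in the labels. SN cells and colonies were taken from the same dishes in the study's methods, but neither source says that a number marks a dish. With the block, FOSL1, JUN and EGR1 had limma adjusted p of 0.224 between these groups.

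Values that turned sign were as follows. In OSK-A549-Colony against parental A549, IER3 A_23_P42257 was at -0.024 with quantile normalization, and with an array left out it ran from -0.14 to 0.12, IER3 A_33_P3423551 from -0.092 to 0.19 and JUNB from -0.53 to 0.20. In OSK-A549-SN against parental A549, ATF3 A_33_P3214096 was at -0.00061 with median centring. With slide as a block JUNB was at 0.044, ATF3 A_33_P3214096 at -0.23, ATF3 A_33_P3214105 at -0.012, IER3 A_23_P42257 at 0.067 and IER3 A_33_P3423551 at 0.11. With an array left out, ATF3 A_33_P3214096 ran from -0.23 to 0.19, ATF3 A_33_P3214105 from -0.012 to 0.29, JUNB from -0.55 to 0.19, IER3 A_23_P42257 from -0.25 to 0.067 and IER3 A_33_P3423551 from -0.26 to 0.11. Between the transduced groups, slide as a block gave -0.24 for JUNB, -0.048 for IER3 A_23_P42257 and -0.038 for IER3 A_33_P3423551. With an array left out, FOSB ran from -0.18 to 0.42, JUNB from -0.24 to 0.20, ATF3 A_33_P3214105 from -0.041 to 0.25, IER3 A_23_P42257 from -0.048 to 0.21 and IER3 A_33_P3423551 from -0.038 to 0.29.

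For the called genes of the lists that are named here the same alternatives were run after the calls were seen. None turned sign. With an array left out, MMP1 and ARC kept no call, CREB5, SIK1, CXCL8, DNAJA1 and CD68 kept theirs in 1 fit each, and TNFAIP3, GADD45B, PLAU and HSPA8 in 2.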
